A study of Mus musculus with 10 samples.

Results

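The genes described here are the mouse chemokines and chemokine receptors of the CC, CXC, XC and CX3C families, chosen by gene symbol alone. The arrays carried 53 such genes among 34832 genes or unnamed transcripts, as 20 CC ligands, 15 ligands of the other families, 10 CC receptors and 8 other receptors. The symbol pattern left out Cx3cr1, which is described below with the partner genes of the pathway. They were measured by 68 probes, and each gene was read from its probe of highest mean signal. Of the 53, 44 were well above background on at least 2 of the 10 arrays and entered the tests.

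The RNA came from cells sorted from the midbrain of mice treated with MPTP, a toxin of dopaminergic neurons. Haematopoietic stem and progenitor cells (HSPCs), depleted of lineage-positive cells, had been placed on 1 side over the substantia nigra at day 3 after the last injection, and the brains were taken 1 week later. Sorted RFP+YFP+ cells, called hybrids, are graft cells that fused with a cell of the recipient, and sorted RFP+ cells are called unfused. The R26Y hybrids arose from HSPCs with Cre and RFP in R26Y recipients, which carry a YFP reporter switched on by Cre. The GFAP-Cre hybrids and the FoxA2-Cre hybrids arose from HSPCs with the R26Y reporter in GFAP-Cre or FoxA2-Cre recipients, where only fusion with a cell that expresses Cre turns YFP on. The 2 control groups were RFP+ cells only: a pool from both R26Y and GFAP-Cre mice, called pooled unfused, and those of FoxA2-Cre mice, called FoxA2-Cre unfused. All 5 groups share MPTP and the graft, each replicate pooled 2 mice, and each group had 2 replicates. The p-values therefore measure the spread between pairs of pooled samples.

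Chemokines are small secreted proteins that guide migrating leukocytes through receptors coupled to inhibitory G proteins. Homeostatic members such as Cxcl12, acting on Cxcr4, hold haematopoietic progenitors in the bone marrow niche. Inflammatory members such as Ccl2, acting on Ccr2, draw monocytes into injured tissue, including the brain, where microglia and astrocytes can make them.

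Cxcl11, an interferon-induced ligand of Cxcr3, was measured by 2 probes, and both hold letters that read like the B1 short interspersed repeat, which is present in many mouse transcripts. These stretches are shown because they decide how the Cxcl11 values can be read, and the capitals mark letters that occur in probes named for other genes.
Cxcl11 representative probe, bases 14 to 43: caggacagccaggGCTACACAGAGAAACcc
Cxcl11 second probe, bases 16 to 45: cAGCACTTGAAAGGCAgaggcaggaggatc
The representative probe lies at chr5:92788567-92788626 and the second at chr5:92788640-92788699, both on the minus strand of build mm9. The capital letters of the first stretch occur in 13 other probes of the array and those of the second in 2. The representative probe shares a run of at least 20 bases with probes of 7 other genes, among them Elk1, Glrx2 and Med16, and it was the only representative probe of the 53 members to do so. Shorter runs of 15 bases were shared with 22 probes named for other genes, against at most 3 for the representative probe of any other member. A signal at this probe can therefore come from other transcripts, and how much of it does was not tested. It made up 46.9% to 93.2% of the summed member signal, so no summed chemokine level is compared.

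Promoters are shown for Cxcl9 and Cxcl10, ligands of Cxcr3 that interferon-gamma induces. They are shown because Cxcl9 had the smallest p of the members and Cxcl10 was among those of smallest p in the comparison of the recipient sets. The representative Cxcl10 probe was not well above background on any FoxA2-Cre array, so its value in that comparison rests on background readings. The 250 bases before each start are from RefSeq on GRCm38.p6, read on the minus strand of chromosome 5, with searched patterns in capitals.
Cxcl9, chr5:92328080-92328329: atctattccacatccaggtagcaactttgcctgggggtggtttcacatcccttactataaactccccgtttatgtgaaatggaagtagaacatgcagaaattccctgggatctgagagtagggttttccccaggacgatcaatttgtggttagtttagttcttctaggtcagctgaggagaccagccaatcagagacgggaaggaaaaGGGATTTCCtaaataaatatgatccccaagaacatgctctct
Cxcl10, chr5:92348890-92349139: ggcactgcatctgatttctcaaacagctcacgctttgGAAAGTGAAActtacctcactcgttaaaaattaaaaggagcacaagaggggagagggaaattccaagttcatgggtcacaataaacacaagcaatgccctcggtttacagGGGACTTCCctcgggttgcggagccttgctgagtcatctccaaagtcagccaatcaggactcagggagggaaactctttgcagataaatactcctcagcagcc
The patterns were GGGANTTCC, a form of the NF-kB site, and the repeat of GAAA after 2 bases of any kind, a form of the interferon response element, each searched on both strands. The first began 42 bases before the Cxcl9 start and 103 bases before the Cxcl10 start, and the second began 213 bases before the Cxcl10 start. GGGANTTCC occurred in 1.43% of 32851 promoters and in 3 of the 37 members with an entry (Cxcl9, Cxcl10 and Ccr6). The GAAA repeat occurred in 2.98% of promoters and in 3 of the 37 (Cxcl10, Cxcl14 and Ccl19). These matches describe letters only.

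The arrays lay on 2 slides. The 6 arrays of R26Y hybrids, GFAP-Cre hybrids and pooled unfused cells were on 1 slide, and the 4 FoxA2-Cre arrays on the other. On the FoxA2-Cre slide the hybrids lay in 1 row and the unfused cells in the other, so group and row coincide there, and a row effect could only be fitted through the first slide. The deposited file of FoxA2-Cre unfused replicate 2 carries in its name the sample number that the labels give to R26Y hybrid replicate 2, while the contents differ. The labels' groups were kept, and the calls that rest on either array are named as such. Between 64.3% and 86.7% of spots were well above background on the first slide and between 19.8% and 49.2% on the second, so recipient set, slide and brightness cannot be told apart and groups are compared within a slide. Replicates correlated least across genes in the R26Y hybrids and the FoxA2-Cre hybrids (Spearman's rho 0.678 and 0.671) and most in the pooled unfused cells (0.951), and genes are not independent in these values. Of 4 listed graft markers, Ptprc, Kit and Cd34 were measured and were well above background on all 6 arrays of the first slide, and Ptprc, the leukocyte gene CD45, was so on all 10. The astrocyte filament gene Gfap was not well above background on any FoxA2-Cre array.

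Between 36 and 43 of the 53 members were well above background on each array of the brighter slide, against 8 to 28 on the FoxA2-Cre arrays. Both arrays detected 35 members in R26Y hybrids, 40 in GFAP-Cre hybrids, 41 in pooled unfused cells, 7 in FoxA2-Cre hybrids and 22 in FoxA2-Cre unfused cells. Detected on all 10 arrays were Ccl3, Ccl19, Ccl25, Cxcl5, Cxcl9, Cxcl11 and Cxcr4. The members not well above background on any array were Ccl20, Ccl22, Ccl28, Cxcl3, Cxcl13, Ccr1, Cxcr5 and Cxcr7 (now Ackr3), and Cxcl17 was so on 1 array. Their probes had a median GC content of 35.0% (16.7% to 46.7%) against 41.7% (31.7% to 55.0%) for the 44 tested, and the part of base composition in their low signal was not tested.

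**Figure D1:**
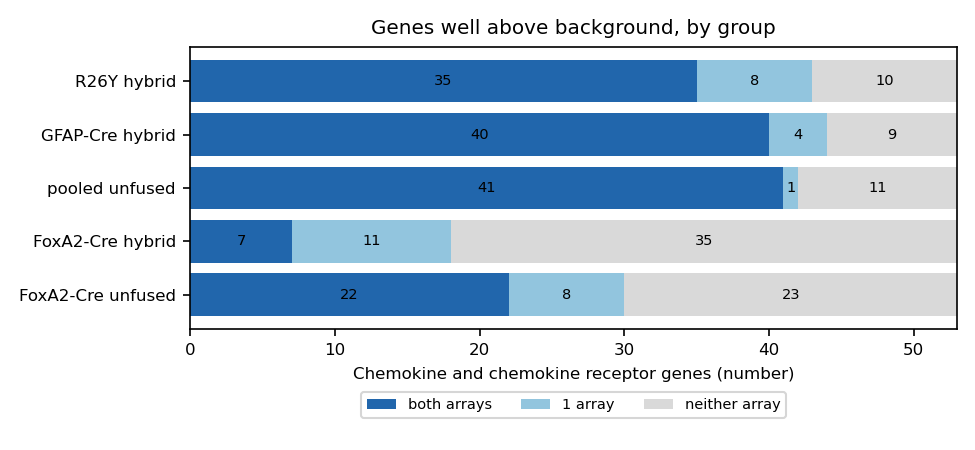
The bars count the 53 chemokine and receptor genes well above background on both arrays, on 1 array or on neither array of each group. Detection on both arrays ran from 7 genes in FoxA2-Cre hybrids to 41 in pooled unfused cells.

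Levels are given as log2 scaled signal, the log2 processed signal of the probe minus the 75th percentile of its array, and are compared only for the same probe. Cxcr4, the receptor of Cxcl12, was well above background on all 10 arrays. It read -1.12 and 3.99 in R26Y hybrids, 1.25 and -0.24 in GFAP-Cre hybrids, and 2.00 and 0.12 in pooled unfused cells. On the other slide it read 3.1 and 5.63 in FoxA2-Cre hybrids and 5.58 and 6.12 in FoxA2-Cre unfused cells. The groups overlapped on both slides, with the highest and the lowest value of the first slide both in R26Y hybrids. The differences from unfused cells were 0.38 ± 1.64 (SE) for R26Y, -0.55 ± 1.64 (SE) for GFAP-Cre and -1.48 ± 1.64 (SE) for FoxA2-Cre hybrids (limma, adjusted p 1.00, 1.00 and 0.777). The sign of the R26Y value changed between the 5 scalings tried.

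Cxcl12, the stromal ligand of Cxcr4, was well above background on 7 arrays. It read -4.49 and -3.77 in R26Y hybrids, -3.87 and -4.55 in GFAP-Cre hybrids and -4.79 and -4.18 in pooled unfused cells. These 3 groups overlapped, and the differences from unfused cells were 0.36 ± 0.60 (SE) and 0.28 ± 0.60 (SE) (limma, adjusted p 1.00 for each). Of the FoxA2-Cre arrays, 1 unfused array alone detected it. Ccr2, the monocyte receptor of Ccl2, was well above background on 5 arrays, all on the brighter slide. It read -4.04 and -6.50 in R26Y hybrids, the second not above background, -5.17 and -4.91 in GFAP-Cre hybrids and -4.66 and -4.24 in pooled unfused cells. Both GFAP-Cre values lay below both unfused values, with a difference of -0.60 ± 0.87 (SE; limma, adjusted p 1.00).

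**Figure D2:**
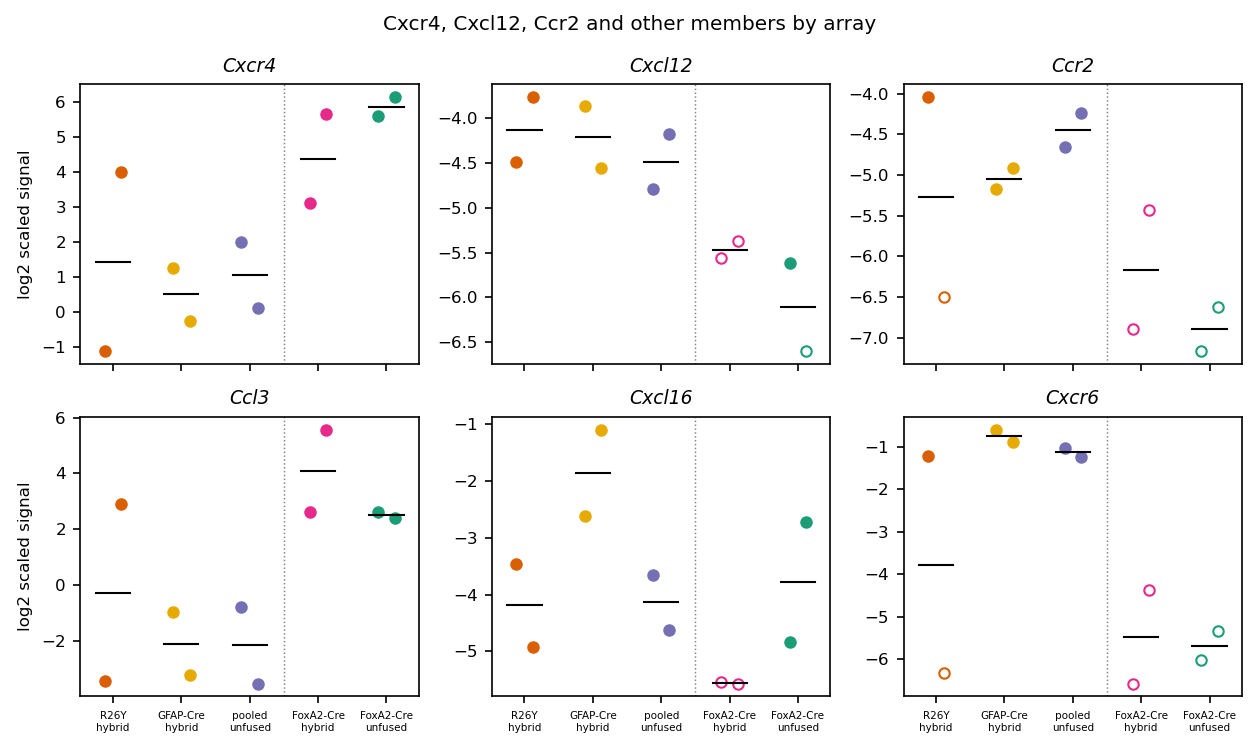
Points give the log2 scaled signal of 6 members on each array, replicate 1 at the left of a pair, filled where the probe was well above background, and black lines give group means. The dotted line separates the slides. The replicates of R26Y hybrids lie apart for Cxcr4 (-1.12 and 3.99), Ccl3 (-3.44 and 2.91) and Cxcr6 (-1.22 and -6.33).

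No member passed the adjusted p of 0.05 in any of the 6 comparisons (limma, Benjamini-Hochberg over 32052 genes). Over all genes, the share that passed was 0.54% for FoxA2-Cre hybrids against FoxA2-Cre unfused cells, 0.0936% for the difference between recipient sets, and 0% in the comparison of R26Y hybrids with unfused cells, of GFAP-Cre hybrids with unfused cells, of both hybrid types with each other, and of all hybrids with all unfused cells. With no adjustment, 0, 1 and 6 of the 44 members had p under 0.05 for R26Y, GFAP-Cre and FoxA2-Cre hybrids against unfused cells. Of all genes, 0.271% were so as higher and 1.12% as lower for R26Y hybrids. The same shares were 0.833% and 0.783% for GFAP-Cre and 4.82% and 3.85% for FoxA2-Cre hybrids. Simulated data of the FoxA2-Cre comparison gave 39 calls among 50 genes with a log2 change of -6 and 34 among 50 with 6. With changes of -3 and 3, only 1 and 5 of 50 were called, and there were 5 false calls among 32052 genes. Differences of that smaller size were mostly not called there with 2 replicates a group. Whether such rates hold on the real FoxA2-Cre arrays, with 19.8% to 49.2% of spots well above background, was not tested.

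**Figure D3:**
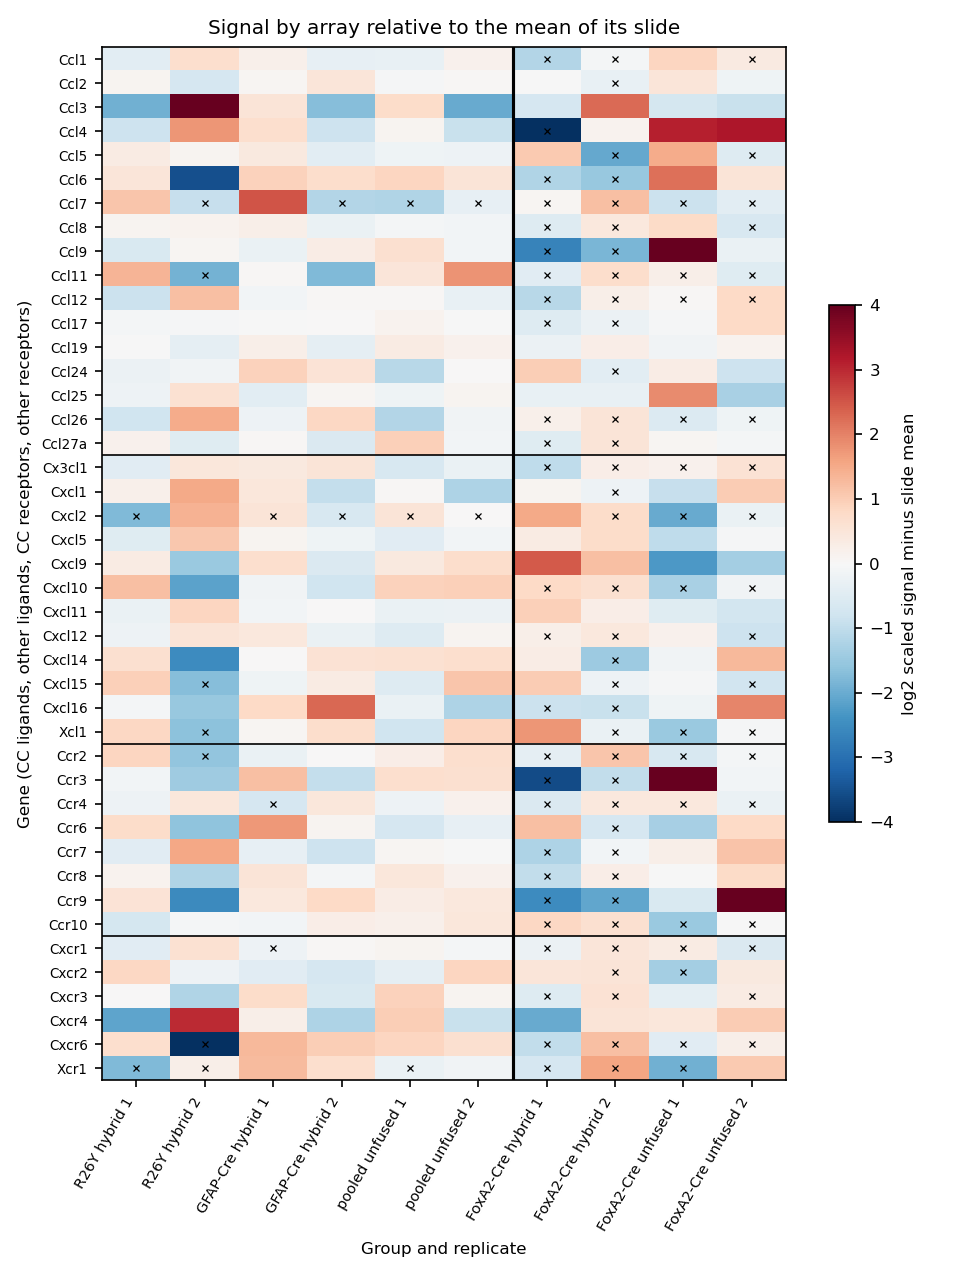
Colour gives the log2 scaled signal of 43 of the 44 tested members minus its mean over the arrays of the same slide, limited at 4, and crosses mark arrays where the probe was not well above background. Replicate 2 of the R26Y hybrids departs from the other arrays of its slide in many rows, and crosses cover most of the FoxA2-Cre hybrid columns.

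FoxA2-Cre hybrids had higher Cxcl9 and lower Ccl4, Ccl9, Ccr3 and Ccr9 than FoxA2-Cre unfused cells, none past the threshold. Without adjustment, 2 of 44 members (4.55%) were higher and 4 (9.09%) were lower with p under 0.05, against 4.82% and 3.85% of all genes. The groups did not overlap for 11 members higher in hybrids (25%) and 9 lower (20.5%), against 26.5% and 10.6% of all genes. The median member difference was 0.04, and that of all genes 0.36. By role, 10 of 17 CC ligands and 5 of 9 CC receptors had differences below 0 (medians -0.33 and -0.14). Differences above 0 were found for 8 of 12 other ligands and 5 of 6 other receptors (medians 0.95 and 0.23). Of all 32052 genes, 20344 lay above 0 and 11708 below. Not well above background on any FoxA2-Cre array were 7 of 20 CC ligands, 5 of 10 CC receptors, 5 of 15 other ligands and 4 of 8 other receptors. Signs of such members are those of background readings, so no split by role is drawn. Over the 5 scalings the median of all genes ran from 0.03 to 0.71, and only 20 of 44 members kept their sign. Among those that kept it were Cxcl9, Cxcl2, Cxcl5, Ccl3, Ccl4, Ccl6, Ccl9, Ccr3, Ccr9 and Ccr10, and among those that did not were Ccl2, Ccl5, Cxcl1 and Ccr8.

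Cxcl9 read 0.35 and -0.90 in FoxA2-Cre hybrids and -4.40 and -3.46 in FoxA2-Cre unfused cells, well above background on all 4 arrays. Both hybrid arrays were higher than both unfused arrays, by 3.66 ± 0.82 (SE), a 12.6-fold difference of the means (limma, adjusted p 0.198, unadjusted p 0.00238). This was the smallest p among the members in any comparison. Leaving out each array in turn gave differences of 3.03 to 4.28, with a smallest adjusted p of 0.108. With the slide row in the fit the difference was 3.94 (limma, adjusted p 0.624). The representative probe lies at chr5:92752796-92752855 of mm9, and the second Cxcl9 probe, at chr5:92752191-92752250, was below the mark for well above background on each of these 4 arrays. Cxcl9 read -0.49 and -0.17 in pooled unfused cells, -0.56 and -2.37 in R26Y hybrids and -0.21 and -1.47 in GFAP-Cre hybrids. Each hybrid value of that slide except that of GFAP-Cre replicate 1 lay below both unfused values, and the direction was opposite to that of the FoxA2-Cre slide.

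Among other ligands, Cxcl2, which draws neutrophils through Cxcr2, was well above background on 1 FoxA2-Cre hybrid array (-4.68) and on neither unfused array. The other hybrid array was not above background, so no fold is given for Cxcl2 (limma, adjusted p 0.602). Cxcl5, another Cxcr2 ligand, read -2.94 and -2.51 in hybrids and -4.28 and -3.30 in unfused cells. The Cxcl5 groups did not overlap, with a difference of 1.07 ± 0.66 (SE; limma, adjusted p 0.662). At the repeat-bearing Cxcl11 probe the readings were 8.12 and 7.41 in hybrids and 6.67 and 6.42 in unfused cells.

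Ccl4, a ligand made by activated macrophages and microglia, had the largest difference toward unfused cells. It read 3.17 and 3.29 in FoxA2-Cre unfused cells, 0.21 in hybrid replicate 2 and -6.42 in hybrid replicate 1, where it was not above background. Both hybrid arrays were lower, with replicates far apart, and the difference was -6.33 ± 1.92 (SE; limma, adjusted p 0.406). Without hybrid replicate 2 it was -9.65 with an adjusted p of 0.0221 (limma), and without hybrid replicate 1 it was -3.01 (limma, adjusted p 0.433), so 1 array decides that call. Ccl3, a related macrophage inflammatory protein, did not follow it. It read 2.63 and 5.57 in hybrids and 2.61 and 2.41 in unfused cells, a difference of 1.59 ± 2.05 (SE; limma, adjusted p 0.798).

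Ccl9 and Ccl6 are mouse ligands of Ccr1 that myeloid cells make. Ccl9 read 2.39 and -2.67 in FoxA2-Cre unfused cells and was not above background on either hybrid array. On the scaling used it was at least 22.7-fold lower in hybrids, which equals the fitted fold (limma, adjusted p 0.424). Over the 5 scalings the Ccl9 difference ran from -4.5 to -2.36. Without unfused replicate 2 the fitted difference was -7.03 and the adjusted p 0.0139 (limma), and without unfused replicate 1 it was -1.98 (limma, adjusted p 0.471). Ccl6 read -1.71 and -3.40 in unfused cells and was not above background in hybrids, at least 6.25-fold lower on the scaling used (limma, adjusted p 0.583). Over the 5 scalings the Ccl6 difference ran from -2.98 to -0.567. Neither ligand overlapped between the groups, and unfused replicate 1 was the higher array for both.

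Among receptors, Ccr3, the eotaxin receptor of eosinophils, read 1.52 and -3.27 in FoxA2-Cre unfused cells and was not above background in hybrids. On the scaling used it was at least 21.0-fold lower in hybrids (limma, adjusted p 0.487), and over the 5 scalings the difference ran from -4.57 to -1.82. Unfused replicate 1 carried this fold. Without that array the fitted difference was -2.17, against -6.97 without unfused replicate 2. Ccr9, the receptor of Ccl25 on gut-homing and thymic lymphocytes, read -2.74 and 3.08 in unfused cells. On the scaling used it was at least 24.0-fold lower in hybrids (limma, adjusted p 0.526), and over the 5 scalings the difference ran from -4.59 to -2.56. Here the higher array was unfused replicate 2, and without unfused replicate 1 Ccr9 alone of the members passed (smallest adjusted p 0.0467, limma; 1 of 44 members, 2.27%, against 1.05% of all genes called lower). That call rests on the array whose file carries another sample's number. The second Ccr9 probe was detected on that array alone of these 4 and read -0.67 there.

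Ccr10, the receptor of Ccl27 and Ccl28, had a fitted difference of 1.49 ± 0.62 (SE; limma, adjusted p 0.570) but was not well above background on any FoxA2-Cre array. The lowest scaled signal well above background was -6.40 and -5.28 on the hybrid arrays and -7.26 and -6.39 on the unfused arrays. The background level thus lay highest on hybrid replicate 2 on this scale, and no direction is drawn for Ccr10.

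Markers of cell types are set beside these members for the same arrays. The 10 neutrophil genes had a log2 summed signal of 0.14 to 0.48 in FoxA2-Cre hybrids and 4.87 to 5.5 in FoxA2-Cre unfused cells, with 1 to 4 and 6 to 8 of them well above background. Mpo and S100a9, genes of neutrophil granules and cytosol, passed as lower in hybrids, by -7.89 ± 1.05 (SE) and -8.60 ± 1.33 (SE) (limma, adjusted p 0.0257 and 0.0468). Neither call holds with the slide row in the fit or with that slide alone, where limma called 0 genes (2331 and 1409 under an unadjusted p of 0.05). The 8 microglia genes summed to 6.24 to 7.55 in hybrids and 4.66 to 4.71 in unfused cells, with 4 to 6 and 5 to 7 detected and none past the threshold. Of the 8 monocyte and macrophage genes, 7 to 8 were detected on every FoxA2-Cre array. All 5 endothelial genes had differences above 0 (3 higher without overlap), with 0 to 1 detected in hybrids and 0 to 2 in unfused cells. Of 8 lymphoid genes, 5 lay above 0 (4 higher and 1 lower without overlap). Of all genes, 26.5% were higher and 10.6% lower without overlap. The part of these cell types in the differences of Cxcl9, Ccl4, Ccl9, Ccr3 and Ccr9 was not tested. In sorted pools, fewer cells of a type and less RNA per cell cannot be told apart.

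**Figure D4:**
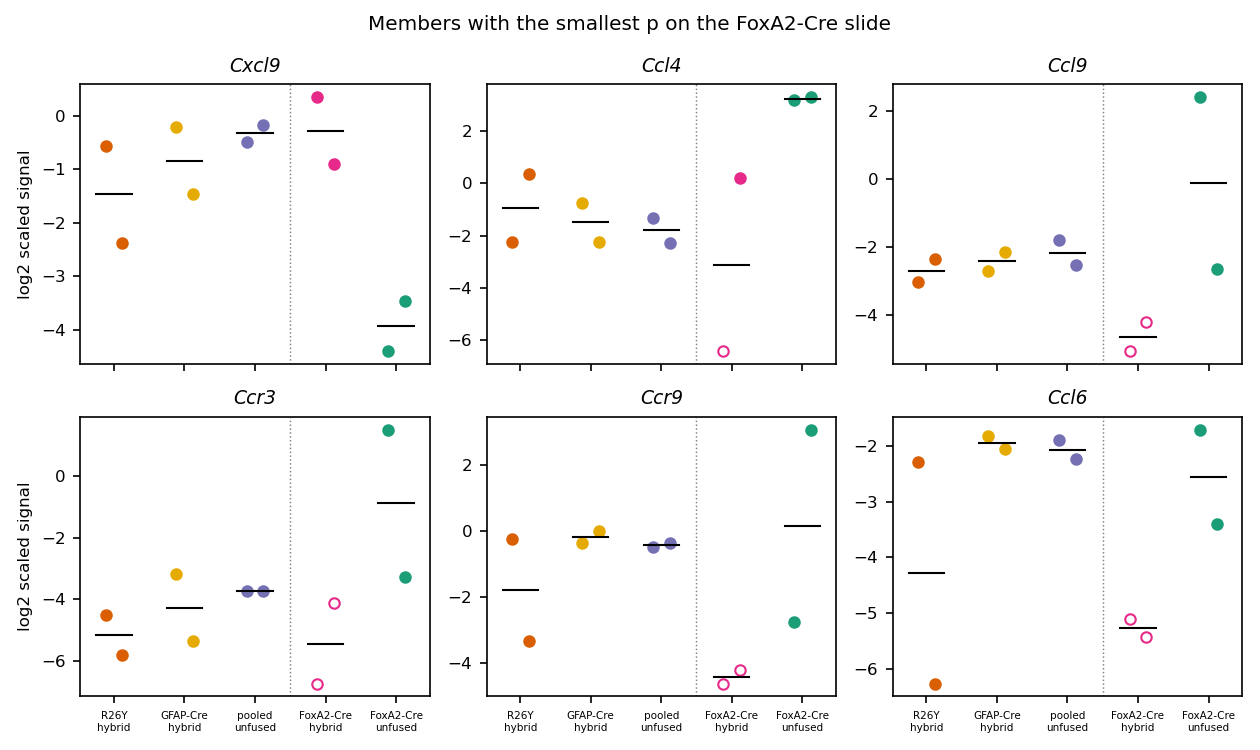
Points give the log2 scaled signal of 6 members on each array, replicate 1 at the left of a pair, filled where the probe was well above background, and black lines give group means. Cxcl9 is higher on both FoxA2-Cre hybrid arrays (0.35 and -0.90) than on both FoxA2-Cre unfused arrays (-4.40 and -3.46), and Ccl9, Ccr3, Ccr9 and Ccl6 are open in both hybrids.

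R26Y hybrids had lower Ccl6 and Cxcr6 and higher Cxcl1 than pooled unfused cells, none past the threshold and mostly through replicate 2. Without overlap, 3 members were higher (6.82%) and 8 lower (18.2%), against 10.6% and 19.5% of all genes, and 0 members were under an unadjusted p of 0.05, against 0.271% (higher) and 1.12% (lower) of all genes. The median difference was -0.09 for members and -0.26 for all genes. Ccl6 read -2.29 and -6.27 in R26Y hybrids and -1.89 and -2.24 in pooled unfused cells. Both hybrid values lay below both unfused values, the first by little, and the difference was -2.21 ± 1.20 (SE; limma, adjusted p 1.00). Cxcr6, the receptor of Cxcl16 on T and natural killer cells, read -1.22 and -6.33 in hybrids and -1.03 and -1.23 in unfused cells. Its second probe read -1.22 and -8.17 against -0.96 and -1.15, and on replicate 2 neither probe was well above background. The second probe (chr9:123720709-123720768 of mm9) overlaps the representative (chr9:123720719-123720778), so it is not a separate reading of Cxcr6. The fitted Cxcr6 difference was -2.65 ± 1.5 (SE; limma, adjusted p 1.00).

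Without R26Y hybrid replicate 1, so that replicate 2 stood alone, Ccl6, Cxcr6 and Cxcl10 passed as lower (limma, smallest adjusted p 0.0244), 6.82% of the members against 5.88% of all genes (1885). Without replicate 2 the Ccl6 difference was -0.22 and the Cxcr6 difference -0.09. Cxcl10 read -2.81 and -6.15 in R26Y hybrids against -3.07 and -3.04 in unfused cells. Ccl6, Cxcr6 and Cxcl10 thus differed between the R26Y replicates by more than between the groups. Replicate 2 was also the dimmest array of its slide, with 64.3% of spots above background, and it is the array whose sample number recurs on another file. The part of this in its low members was not tested. Of the 10 neutrophil genes, 9 had differences below 0 in R26Y hybrids (median -1.53, 6 lower without overlap, 0 past the threshold). Of all 32052 genes, 20567 lay below 0 and 19.5% were lower without overlap. The log2 summed signal of the neutrophil genes was -0.18 to 1.33 against 1.97 to 2.57 in pooled unfused cells, with 7 to 8 against 8 to 9 well above background. All 5 tested astrocyte genes had differences below 0 (median -0.60, 0 past the threshold), with summed signals of -0.88 to 1.14 against 0.84 to 0.96. Of the 7 tested microglia genes, 5 lay above 0 (median 0.48, 1 higher without overlap, 0 past the threshold). Of all genes, 11485 lay above 0 and 10.6% were higher without overlap. The part of these cell types in the R26Y differences was not tested.

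Toward hybrids, Cxcl1, a neutrophil attractant that acts on Cxcr2, read -4.45 and -3.14 in R26Y hybrids and -4.60 and -5.89 in unfused cells. The groups did not overlap, with a difference of 1.45 ± 0.89 (SE; limma, adjusted p 1.00). Ccl26, an eotaxin, differed by 1.00 ± 0.83 (SE; limma, adjusted p 1.00) through replicate 2 alone (-3.14, against -5.43 in replicate 1), and without it the difference was -0.14. Cxcr3, the receptor of Cxcl9, Cxcl10 and Cxcl11, read -4.73 and -5.92 in hybrids and -3.80 and -4.61 in unfused cells, a difference of -1.12 ± 0.75 (SE; limma, adjusted p 1.00) with no overlap.

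The high side of R26Y hybrid replicate 2 was as uneven. Ccl3 read -3.44 and 2.91 in R26Y hybrids, -0.97 and -3.21 in GFAP-Cre hybrids and -0.78 and -3.52 in pooled unfused cells. Ccl4 read -2.24 and 0.36, -0.74 and -2.24, and -1.31 and -2.29 in the same order. For Cxcr4, Ccl3 and Ccl4 alike, the highest arrays were R26Y hybrid replicate 2 and replicate 1 of both the GFAP-Cre hybrids and the pooled unfused cells. The same 3 arrays had the lowest 75th percentiles of log2 signal on the slide (10.46, 10.68 and 10.81, against 11.00 to 11.37), and the part of this in the order was not tested.

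GFAP-Cre hybrids had higher Cxcl16 and lower Ccl11 and Cxcl10 than pooled unfused cells, none past the threshold. Without overlap, 10 members were higher (22.7%) and 6 lower (13.6%), close to the 19.9% and 14.4% of all genes, and the median difference was 0.03 for members and for all genes. Cxcl16, a membrane-bound ligand of Cxcr6 that also acts as a scavenger receptor, read -2.61 and -1.10 in GFAP-Cre hybrids and -3.65 and -4.63 in unfused cells. Both hybrid arrays were higher than both unfused arrays and than both R26Y hybrid arrays (-3.46 and -4.92). The difference from unfused cells was 2.28 ± 0.92 (SE), a 4.86-fold difference of the means (limma, adjusted p 1.00, unadjusted p 0.0384), and leaving out each array in turn gave 1.52 to 3.04. It was the only member under 0.05 unadjusted, against 0.833% of all genes in that direction.

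Ccl24, an eotaxin, read -4.12 and -4.50 in GFAP-Cre hybrids and -6.15 and -5.02 in unfused cells, with a difference of 1.28 ± 0.71 (SE; limma, adjusted p 1.00). Cx3cl1, the membrane-bound ligand of the microglial receptor Cx3cr1, read -3.94 and -3.80 against -4.94 and -4.57, a difference of 0.89 ± 0.62 (SE; limma, adjusted p 1.00). For both, the hybrid arrays lay above the unfused arrays. Ccl11, the eotaxin that acts on Ccr3, read -5.32 and -7.12 in GFAP-Cre hybrids and -4.88 and -3.56 in unfused cells, a difference of -2.0 ± 1.15 (SE; limma, adjusted p 1.00). Cxcl10 read -4.15 and -4.82 in hybrids against -3.07 and -3.04, a difference of -1.43 ± 1.02 (SE; limma, adjusted p 1.00). The Ccl11 and Cxcl10 groups did not overlap either, and the second Cxcl10 probe was not above background on any of the 4 arrays. Ccl27a, a skin T-cell attractant with near-identical copies in the mouse genome, read -4.37 and -4.98 against -3.44 and -4.51 and overlapped.

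Most neutrophil and astrocyte markers had differences below 0 in GFAP-Cre hybrids against pooled unfused cells, and most microglia markers above 0, none past the threshold. Of the 10 neutrophil genes, 7 had differences below 0 (median -0.89, 5 lower without overlap). Of all 32052 genes, 14934 lay below 0 and 14.4% were lower without overlap. The log2 summed signal of the neutrophil genes was 1.06 to 1.48 against 1.97 to 2.57, with 9 against 8 to 9 well above background. All 5 tested astrocyte genes had differences below 0 (median -1.0), with summed signals of -0.10 to 0.32 against 0.84 to 0.96. Of the 7 tested microglia genes, 6 lay above 0 (median 0.65, 4 higher without overlap). Of all genes, 17118 lay above 0 and 19.9% were higher without overlap. The summed microglia signals overlapped (2.95 to 3.46 against 2.84 to 3.44). The part of these cell types in the GFAP-Cre differences was not tested.

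**Figure D5:**
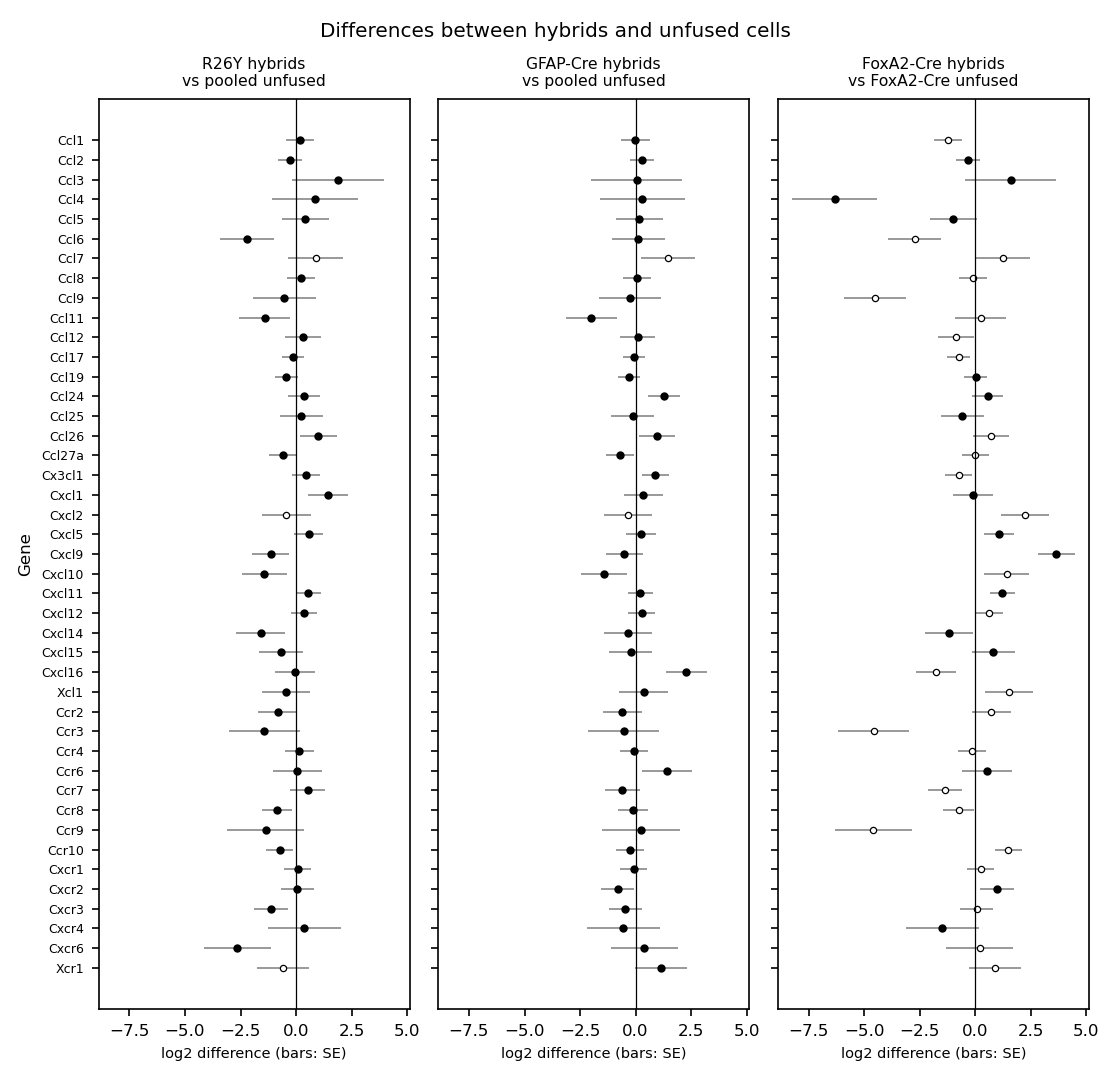
Points give the log2 difference, hybrid minus unfused, of 43 of the 44 tested members in 3 comparisons on 1 common axis, and bars give its SE from the fit. Open points mark members not well above background on either array of at least 1 group, whose fitted difference is not a measured size, and in the FoxA2-Cre panel the filled points of Ccl4 (-6.33) and Cxcl9 (3.66) lie far from 0.

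Between the hybrid types of the brighter slide, GFAP-Cre hybrids were higher than R26Y hybrids for 6 members without overlap (13.6%) and lower for 1, Cxcr2 (2.27%), against 20.2% and 7.51% of all genes. Cxcl16 differed by 2.34 ± 0.92 (SE; limma, adjusted p 1.00, unadjusted p 0.0351), the only member under 0.05, against 2.09% of all genes in that direction. Its receptor Cxcr6 read -0.59 and -0.89 in GFAP-Cre hybrids, and the difference of 3.03 ± 1.5 (SE; limma, adjusted p 1.00) fell to 0.48 without R26Y hybrid replicate 2. Ccl6 differed by 2.34 ± 1.20 (SE; limma, adjusted p 1.00) and by 0.34 without that array. Toward R26Y hybrids, Ccr7, the lymph-node homing receptor, differed by -1.13 ± 0.78 (SE), Cxcl1 by -1.10 ± 0.89 (SE) and Cxcr2 by -0.88 ± 0.75 (SE) (limma, adjusted p 1.00 for each). This comparison shares the R26Y and GFAP-Cre arrays with the comparisons against pooled unfused cells and is not independent of them.

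With the recipient set in the fit, all 6 hybrid arrays were compared with all 4 unfused arrays. No member separated the hybrids from the unfused cells without overlap, against 1.08% (higher) and 0.472% (lower) of all genes. The member median was -0.11 and that of all genes 0.03. Ccr3 was the only member under an unadjusted p of 0.05, at -2.52 ± 1.11 (SE; limma, adjusted p 0.999), against 1.34% of all genes lower and 1.78% higher, and its groups overlapped. The other members of smallest p were Ccl9 at -2.15 ± 1.05 (SE) and Ccl6 at -1.76 ± 0.89 (SE) among the lower ones, and the repeat-bearing Cxcl11 probe at 0.74 ± 0.36 (SE), Ccl26 at 0.87 ± 0.49 (SE) and Cxcl5 at 0.69 ± 0.41 (SE) among the higher ones (limma, adjusted p 0.999 for each). By role, 12 of 17 CC ligands and 6 of 9 CC receptors had differences below 0, while 9 of 12 other ligands lay above 0, and other receptors were split 3 to 3. These counts include members not well above background on any FoxA2-Cre array, so no split by role is drawn. Over the 5 scalings 16 of the 44 members changed sign in this comparison, none of them among the members named here. Of the 10 neutrophil genes, 9 lay below 0 as well (median -1.86, 5 with an unadjusted p under 0.05, 0 past the threshold). Of all 32052 genes, 15339 lay below 0. Of the 7 tested microglia genes, 6 lay above 0 (median 0.55, 2 with an unadjusted p under 0.05, 0 past the threshold). The part of both cell types in these differences was not tested.

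The hybrid effect was also compared between the recipient sets, as the FoxA2-Cre difference minus the mean of the R26Y and GFAP-Cre differences. Cxcl9 gave 4.48 ± 1.09 (SE; limma, adjusted p 0.478, unadjusted p 0.00367), and leaving out each array in turn gave 3.85 to 5.10. Ccl4 gave -6.91 ± 2.54 (SE) and Cxcl16 -2.88 ± 1.21 (SE) (limma, adjusted p 0.835 for each). Cxcl16 was higher in GFAP-Cre hybrids than in their unfused cells, whereas in FoxA2-Cre hybrids it was not above background and in FoxA2-Cre unfused cells it read -4.84 and -2.73. The sign of the FoxA2-Cre difference of Cxcl16 changed between the 5 scalings (-2.63 to 0.216), so no direction is drawn for it on that slide. Cxcl10 gave 2.85 ± 1.35 (SE) and Ccr10 1.99 ± 0.82 (SE) (limma, adjusted p 0.835 for each), both of them not well above background on any FoxA2-Cre array. Ccl9 gave -4.12 ± 1.87 (SE; limma, adjusted p 0.835), and it passed without FoxA2-Cre unfused replicate 2 (limma, adjusted p 0.0462). Without adjustment, 2 of 44 members (4.55%) were higher and 2 (4.55%) lower with p under 0.05, against 3.38% and 2.25% of all genes. The slide coincides with the recipient set in this contrast.

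Ligands and receptors were also read side by side, each against its own arrays only. For Cxcl12 and Cxcr4 the receptor was detected on 10 arrays and the ligand on 7. For Ccl2 and Ccr2, the ligand read -4.49 and -4.77 in FoxA2-Cre hybrids and -3.98 and -4.63 in FoxA2-Cre unfused cells, where the receptor was not detected. Under other scalings the sign changed for the R26Y and FoxA2-Cre differences of Ccl2. It differed from unfused cells by -0.26 ± 0.53 (SE) in R26Y, 0.29 ± 0.53 (SE) in GFAP-Cre and -0.33 ± 0.53 (SE) in FoxA2-Cre hybrids, among the narrowest errors of the members (limma, adjusted p 1.00, 1.00 and 0.838).

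Ccl5, a T-cell attractant, differed from unfused cells by 0.41 ± 1.06 (SE), 0.17 ± 1.06 (SE) and -0.99 ± 1.06 (SE) in the order R26Y, GFAP-Cre and FoxA2-Cre, with a sign that depended on the scaling in the last 2. For Ccl25 and Ccr9, the ligand was detected on all 10 arrays and read 1.01 and 1.02 in FoxA2-Cre hybrids and 3.19 and 0.00 in their unfused cells. Ccr9 was highest on FoxA2-Cre unfused replicate 2 and Ccl25 on replicate 1, so ligand and receptor did not peak on the same array. For Ccl19 and Ccr7, the ligand stayed within -0.62 and 0.61 on all 10 arrays in each group, and like Ccl27a it has near-identical genomic copies that the probe may also bind.

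For Ccl20 and Ccr6, Cxcl13 and Cxcr5, and Ccl22 and Ccr4, the ligand was not detected on any array. Ccr6 read -2.76 and -5.12 in R26Y hybrids, -1.76 and -3.41 in GFAP-Cre hybrids and -4.18 and -3.83 in unfused cells, and both GFAP-Cre values lay above both unfused values. Ccl17, the other Ccr4 ligand, lay between -4.41 and -4.19 on all 6 arrays of that slide. For Xcl1 and Xcr1, the receptor of cross-presenting dendritic cells was detected on both GFAP-Cre hybrid arrays (-5.56 and -6.17) and on neither R26Y hybrid array. On the scaling used Xcr1 was at least 3.27-fold higher (limma, adjusted p 1.00), and over the 5 scalings its difference ran from 0.275 to 1.73. Cxcr2 and its ligand Cxcl1 gave differences of 0.98 ± 0.75 (SE) and -0.09 ± 0.89 (SE) in FoxA2-Cre hybrids, the latter with a sign that depended on the scaling.

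The remaining tested members were mostly ligands. Ccl7, a monocyte attractant, was well above background on 1 R26Y hybrid array (-6.67) and 1 GFAP-Cre hybrid array (-5.28) and on no unfused array. Ccl1, a Ccr8 ligand, read from -5.10 to -4.0 on the 6 arrays of the brighter slide, and Ccl8, another monocyte attractant, from -5.33 to -4.80. The Ccl1 groups of that slide overlapped. For Ccl8, both R26Y hybrid values lay above both unfused values, with a difference of the means of 0.22, and the GFAP-Cre hybrids overlapped the unfused cells. Cxcl14, a ligand made by many epithelia, read -1.65 and -4.80 in R26Y hybrids and between -2.26 and -1.60 on the other 4 arrays of that slide, again with R26Y hybrid replicate 2 low. Cxcl15, the lung chemokine, and Xcl1 were not above background on R26Y hybrid replicate 2 and were detected on the other 5 arrays. Ccl12, Ccr4 and Cxcr1 were not above background on any FoxA2-Cre array. Ccr8, a receptor of regulatory T cells, read -3.81 and -3.03 in FoxA2-Cre unfused cells and was not above background in hybrids, with a fitted difference that changed sign between scalings (-0.73 to 0.33), so no direction is drawn for it.

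The partner list held 33 other chemokine pathway genes, among them atypical receptors, platelet chemokines, G protein subunits, arrestins and Rac activators. Of its 32 tested genes, 0 passed in any comparison, and 2 (6.25%) were higher in FoxA2-Cre hybrids with an unadjusted p under 0.05, near the 4.82% of all genes. Cx3cr1, the microglial receptor of Cx3cl1, read 4.64 and 6.30 in FoxA2-Cre hybrids and 3.23 and 2.42 in unfused cells, a difference of 2.64 ± 0.86 (SE; limma, adjusted p 0.443). Its ligand Cx3cl1 was not above background on any of these 4 arrays. Pf4, a platelet chemokine, was detected on 1 hybrid array (-0.68) and on neither unfused array. The other hybrid array was not above background, so no fold is given for Pf4 (limma, adjusted p 0.515). Toward unfused cells, Rac2, a leukocyte GTPase, differed by -2.0 ± 1.00 (SE) and Plcb2, a phospholipase downstream of the receptors, by -1.02 ± 0.53 (SE) (limma, adjusted p 0.608 and 0.615). The list's median difference in this comparison was 0.13, and that of all genes 0.36.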

How the data were processed

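Per the labels' protocols, RNA of sorted cells was amplified by whole-transcriptome amplification before Cy3 labelling (500 ng). The authors deposited, for each of 10 1-colour Agilent 8x60K arrays, the scanner output of Agilent Feature Extraction (version 10.7.3.1), with processed, mean and background signals as intensities. The processed intensities were already corrected for background, per the file headers. A mark for spots well above background and marks for non-uniform spots are 0 or 1 values of other kinds in the deposited tables. The authors' deposited value table holds log2 values, whose scale and tool are not given in the sources used here. Its median was 7.38 on each array of the brighter slide and 6.26 on each FoxA2-Cre array, and it follows the rank of mean signal minus background on each array. It served as an alternative only.

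The values used were log2 processed signal minus each array's 75th percentile, taken over the 9510 spots well above background on all arrays. Non-uniform spots were left out, spots of a probe were averaged, a gene was read from its probe of highest mean, and genes had to be well above background on at least 2 arrays. Where a group was not above background on either array, a fold is written as at least. It is taken between group means, with each dim array set to the higher of its reading and its background level. Such a fold holds for the scaling used only and does not cover the spread between arrays or between scalings. The tests used limma 3.58.1 in R 4.3.3 with two-sided moderated tests on 5 group means (5 residual degrees of freedom). The comparison of all hybrids had a term for the recipient set and 7 residual degrees of freedom. Benjamini-Hochberg adjustment ran over all 32052 genes, with a threshold of 0.05. The steps were tested on simulated data. Named are Cxcr4, Cxcl12 and Ccr2, the 3 members of smallest p in each direction of each comparison, and fixed ligand and receptor pairs. Ccl3, Cxcl2, Ccl1, Ccl7, Ccl8, Ccr8 and other members outside these were named after their values were seen. The members, lists and tests were chosen with earlier results of these data known. Gene names and probe coordinates (mm9) are those of the array files, and sequences of probes come from the deposited tables. The values of 1 tested member are not reported here, though it is part of the counts and medians.

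Depth is shown by how many spots were well above background, and precision is limited by the number of arrays. Replicate numbers did not pair the samples: the replicate differences of any pair of groups correlated with r between -0.0715 and 0.0727. Alternatives were normexp background correction (offset 50), quantile normalization, a percentile over all spots, the authors' value table, no filter or a filter at 5 arrays, the mean of a gene's probes, non-uniform spots kept, array weights, the replicate block, the slide row, 1 slide alone, and each array left out.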

Additional observations from a re-analysis of the deposited data

How the results depend on the processing

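Besides leaving out single arrays, 11 to 13 alternatives were run for each of the 6 comparisons, and 0 of the 44 members passed in any of them (limma). They include the replicate block and the slide row for each comparison. A fit without the R26Y hybrid arrays, chosen after seeing the data, was made for 3 comparisons, and no fit of 1 slide alone exists for the difference between recipient sets. Leaving out each array in turn gave 0 to 3 members for R26Y hybrids against pooled unfused cells and 0 to 2 for GFAP-Cre against R26Y hybrids, where the highest counts (6.82% and 4.55% of members) came without R26Y hybrid replicate 1, against 7.19% and 6.77% of all genes. It gave 0 to 1 for FoxA2-Cre hybrids against FoxA2-Cre unfused cells and 0 to 1 for the difference between recipient sets. An array left alone in its group is assumed to vary like the other groups. The Ccl26 difference for R26Y hybrids ran from -0.141 to 2.15, and that of Cxcl11 from -0.0147 to 1.12. Of the other checks of named differences, 795 kept direction and side of the threshold and 7 newly passed, all of them with an array left out. Over all genes, the 173 FoxA2-Cre calls became 112 with normexp, 104 with array weights, 106 with the replicate block, 268 without the R26Y hybrid arrays, and 0 with the slide row in the fit or with that slide alone. They ranged from 60 to 560 with an array left out. The 30 calls of the difference between recipient sets became 11 with quantile normalization, 56 in the authors' value table, and 0 with the replicate block or the slide row, with a range of 0 to 155. In both sets of calls the cause was not tested. The brightness of the FoxA2-Cre arrays limits what can be said of 21 members that were not above background on any of them.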

Other observations

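Other probes of the members gave isolated high signals on FoxA2-Cre hybrid replicate 1. Another Ccl19 probe read 3.67 there, against -5.42 on hybrid replicate 2 and -7.46 and -4.15 in unfused cells, while the representative Ccl19 probe read -0.62 on the same array. A second Ccl25 probe read 4.54 there and was not above background on the other 3 arrays of the slide (-5.70, -6.36 and -6.40), while the representative Ccl25 probe read 1.01. The second Cxcl12 probe was well above background on that array alone of the slide (-4.09), where the representative Cxcl12 probe was not. Pf4 was likewise detected on that array alone of the slide. These probes were noticed after their values were seen, and no test was made of them.

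On R26Y hybrid replicate 2 the second Cxcl10 probe was well above background (-4.59) and on no other array, while the representative Cxcl10 probe was lower there (-6.15) than on the other 5 arrays of the slide (-4.82 to -2.81). The 2 Cxcl10 probes thus went opposite ways on that array. Both Cxcr6 probes were low together there, but they overlap on the genome and are not separate readings of the gene.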
